A study of Homo sapiens with 5 samples.

Results

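The 43 genes described here act in G2, the gap between DNA synthesis and division, and in mitosis. They were listed by function, with earlier results of these data known, and were found by matching each Ensembl identifier of the deposited gene count table to its symbol. All 43 were found among 65217 identifiers, and all 43 passed the filter on low counts that left 20419 genes for testing. They were measured in the REH cell line, which derives from a human acute lymphoblastic leukaemia of B cell precursors and carries the ETV6-RUNX1 fusion, after xenotransplantation into NSG mice (NOD.Cg-PrkdcscidIl2rgtm1Wjl/SzJ) aged 6 to 10 weeks. These mice lack T, B and NK cells and keep their own myeloid cells. Both groups were untreated REH cells of the same line: 3 libraries came from the leptomeninges, the thin membranes around the brain (called brain below), and 2 came from the spleen. Each library pooled the RNA of 5 mice after Ficoll density purification, and the replicate number marks 1 of 3 independent occasions. The submitters dropped the third spleen pool after quality control. Since the pools came from separate occasions and 1 cell line, p-values measure the spread between pools, not between single mice or patients.

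Entry into mitosis is driven by CDK1 bound to cyclins A and B, which CDC25 phosphatases switch on and the Aurora and Polo kinases reinforce. Chromosomes are then condensed, caught by microtubules at their kinetochores and held by the spindle checkpoint until all are attached. The anaphase promoting complex, activated by CDC20, then marks securin and cyclin B for destruction, and the cell divides. Transcripts of many of these genes are low in G1 and high in G2 and mitosis, under the MuvB complex with B-MYB and FOXM1, and they are in common use as markers of dividing cells in leukaemia. In bulk RNA, a smaller share of cells in G2 or mitosis and less of these transcripts in each such cell cannot be told apart.

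A pair of short motifs is known in promoters of this class, the CHR, which the MuvB complex binds, and the CCAAT box, which NF-Y binds. Promoters reaching from 250 bases before to 50 bases after the gene start placed by RefSeq (GRCh38.p14) were taken and matched 36 of the 43 genes by symbol. The motifs were searched on both strands, the CHR as TTTGAA or TTCGAA and the CCAAT box as CCAAT. Other spellings of the CHR were not searched, so a window without a match may still hold one. A match is a description of letters and not of binding. A CHR was present in 26 of the 36 promoters (72.2%), against 11.8% of 12567 promoters of tested genes and 16.6% of all 27305 promoters in the table. A CCAAT box was present in 27 of the 36 (75%), against 36.2% of promoters of tested genes and 35.7% of all promoters. Both were present in 58.3% of the genes' promoters and in 4.91% of those of tested genes. Other lists of G2/M and mitosis genes had a CHR in 46.4% of 97 promoters, and G1/S and DNA replication genes in 5.71% of 35. The 6 promoters below are those of the 5 genes that passed the test between brain and spleen and of PLK4, whose level was nearly equal in both. They are printed 5′ to 3′ on the strand of the gene, and capitals mark each CHR or CCAAT match.
CDC20, chr1:43358731-43359030, plus strand: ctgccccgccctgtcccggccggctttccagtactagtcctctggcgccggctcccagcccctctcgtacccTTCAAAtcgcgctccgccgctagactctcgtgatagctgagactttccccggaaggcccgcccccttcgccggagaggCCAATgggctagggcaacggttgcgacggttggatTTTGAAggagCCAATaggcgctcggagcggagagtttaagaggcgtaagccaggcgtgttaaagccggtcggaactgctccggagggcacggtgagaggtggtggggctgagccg
KIF4A, chrX:70289854-70290153, plus strand: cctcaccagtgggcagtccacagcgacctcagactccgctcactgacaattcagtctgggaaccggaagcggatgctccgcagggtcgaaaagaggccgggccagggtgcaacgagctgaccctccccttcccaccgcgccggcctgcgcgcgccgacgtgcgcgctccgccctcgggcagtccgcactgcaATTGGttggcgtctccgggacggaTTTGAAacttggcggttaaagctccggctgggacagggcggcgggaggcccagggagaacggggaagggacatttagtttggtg
CCNB1, chr5:69166900-69167199, plus strand: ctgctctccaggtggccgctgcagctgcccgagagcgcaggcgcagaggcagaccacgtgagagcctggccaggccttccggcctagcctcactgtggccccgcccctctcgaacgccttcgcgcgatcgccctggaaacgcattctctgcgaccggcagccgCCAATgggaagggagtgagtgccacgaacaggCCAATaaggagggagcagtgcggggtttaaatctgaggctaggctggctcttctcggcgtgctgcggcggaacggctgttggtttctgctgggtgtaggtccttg
PTTG1, chr5:160421605-160421904, plus strand: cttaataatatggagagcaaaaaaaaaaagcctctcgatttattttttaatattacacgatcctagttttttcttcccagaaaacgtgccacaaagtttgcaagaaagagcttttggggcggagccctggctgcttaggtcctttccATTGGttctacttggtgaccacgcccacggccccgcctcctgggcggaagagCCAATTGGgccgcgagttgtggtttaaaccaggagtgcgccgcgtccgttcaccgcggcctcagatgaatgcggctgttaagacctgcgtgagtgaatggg
AURKB, chr17:8210176-8210475, minus strand: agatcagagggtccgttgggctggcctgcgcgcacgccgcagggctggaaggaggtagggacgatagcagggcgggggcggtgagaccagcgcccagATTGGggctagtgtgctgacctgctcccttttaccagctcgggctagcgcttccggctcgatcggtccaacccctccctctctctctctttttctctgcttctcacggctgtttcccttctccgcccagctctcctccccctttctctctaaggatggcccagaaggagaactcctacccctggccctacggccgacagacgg
PLK4, chr4:127880643-127880942, plus strand: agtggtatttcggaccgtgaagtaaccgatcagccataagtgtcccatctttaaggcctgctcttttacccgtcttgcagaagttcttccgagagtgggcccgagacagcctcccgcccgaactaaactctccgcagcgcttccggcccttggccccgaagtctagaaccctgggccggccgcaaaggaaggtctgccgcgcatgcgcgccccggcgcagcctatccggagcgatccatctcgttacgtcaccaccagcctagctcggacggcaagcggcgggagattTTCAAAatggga
CDC20 held 2 CHR and 2 CCAAT matches, and KIF4A held 1 of each. CCNB1 and PTTG1 held CCAAT matches, 2 and 3, and no match to the CHR spellings searched. A pair of the CCAAT matches in PTTG1 overlap on opposite strands. AURKB held 1 CCAAT match, and PLK4 held 1 CHR match. The AURKB window lies inside the span given for this gene below, which starts at 8210600 on the minus strand. Its matches thus refer to the RefSeq start alone, and sequence before the other start was not searched. The windows of some other genes, CENPA and NUF2 among them, also lie inside their gene spans. The log2 fold change, brain over spleen, had a median of -0.26 in the 26 genes with a CHR in the RefSeq window. It was -0.32 in the 10 without a match to TTTGAA or TTCGAA, AURKB among them. Some of these 10 may hold other spellings of the CHR, and no difference between the 2 sets was tested.

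The deposited gene table held 38387991 to 48764202 estimated counts per library. Mouse transcripts took 2.58% to 5.70% of the transcript estimates in the brain libraries and 6.33% to 8.87% in the spleen libraries, with no overlap between groups, and brain replicate 1 was the highest of its group. Of 10 markers of precursor B cells, 9 were detected and VPREB1 was at 0. Their summed level was 5601 to 5890 CPM (counts scaled to a common library size, with TMM factors) in brain and 5987 to 6098 in spleen. Within this sum, CD79A was lower in brain (log2 fold change -0.61, adjusted p = 0.0166, edgeR). RAG1 was higher there (0.55, adjusted p = 0.0137, edgeR), and the other 7 tested did not pass. Human markers of T and NK cells summed to 2.26 CPM at most and erythroid markers to 0.357, with CD3D and AHSP at 0. Myeloid markers summed to 28.6 to 39.4 CPM in brain and 18.8 to 22.9 in spleen, mostly MPO. Neural markers summed to 24.1 to 26.5 and 21.6 to 23.8 CPM with SNAP25 at 0. Of the 4 tested, GFAP (log2 fold change 1.30, at most 0.733 CPM) and MBP (0.49) were above 0. RBFOX3 (-0.74) and SYT1 (-0.01) were below 0. None of the 4 passed with edgeR, and DESeq2 called 1 higher, as it did 1544 of all 20419 tested genes. Markers of meningeal, fibroblast and endothelial cells summed to 14.0 to 21.0 and 4.40 to 5.38 CPM with PTGDS at 0. Most of that gap was PECAM1, a surface protein of endothelial and blood cells, at 12.7, 17.4 and 10.2 CPM in brain and 1.78 and 1.09 CPM in spleen (log2 fold change 3.23, adjusted p = 0.000601, edgeR). DCN, COL1A1, COL1A2 and CLDN5 had at most 1.94 CPM in any library and did not pass, and CDH5 and LUM had at most 0.133 CPM. A fit with the mouse share as a covariate is given below. Because that share did not overlap between groups, it cannot be fully told apart from site. The part of the marker differences in the results below was not tested.

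Mitosis and G2/M transcripts were mostly at lower levels in the leukaemia cells from brain than in those from spleen, by small amounts. The 43 genes together summed to 6122, 6404 and 6449 CPM in brain replicates 1 to 3 and to 7735 and 7631 CPM in spleen replicates 1 and 2. Neither group's sums overlapped the other's. With edgeR's quasi-likelihood test and Benjamini-Hochberg adjustment over all genes, 5 of the 43 fell in brain at the threshold of 0.05 (CCNB1, AURKB, KIF4A, CDC20 and PTTG1), where 3.50% of all tested genes fell. None of the 43 rose, where 6.01% of all genes rose, and 38 did not pass. No gene of the 43 was higher in brain at an unadjusted p under 0.05 or with DESeq2. The log2 fold change was below 0 in 41 of the 43 (95.3%) and in 49.3% of all genes. Its median was -0.27 with a range of -0.58 to 0.02, against a median of 0.01 over all genes. At an unadjusted p under 0.05, 24 of the 43 were lower in brain, where 11.3% of all genes were. Every brain library lay below both spleen libraries for 33 of the 43 and for 19.5% of all genes.

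**Figure D1:**
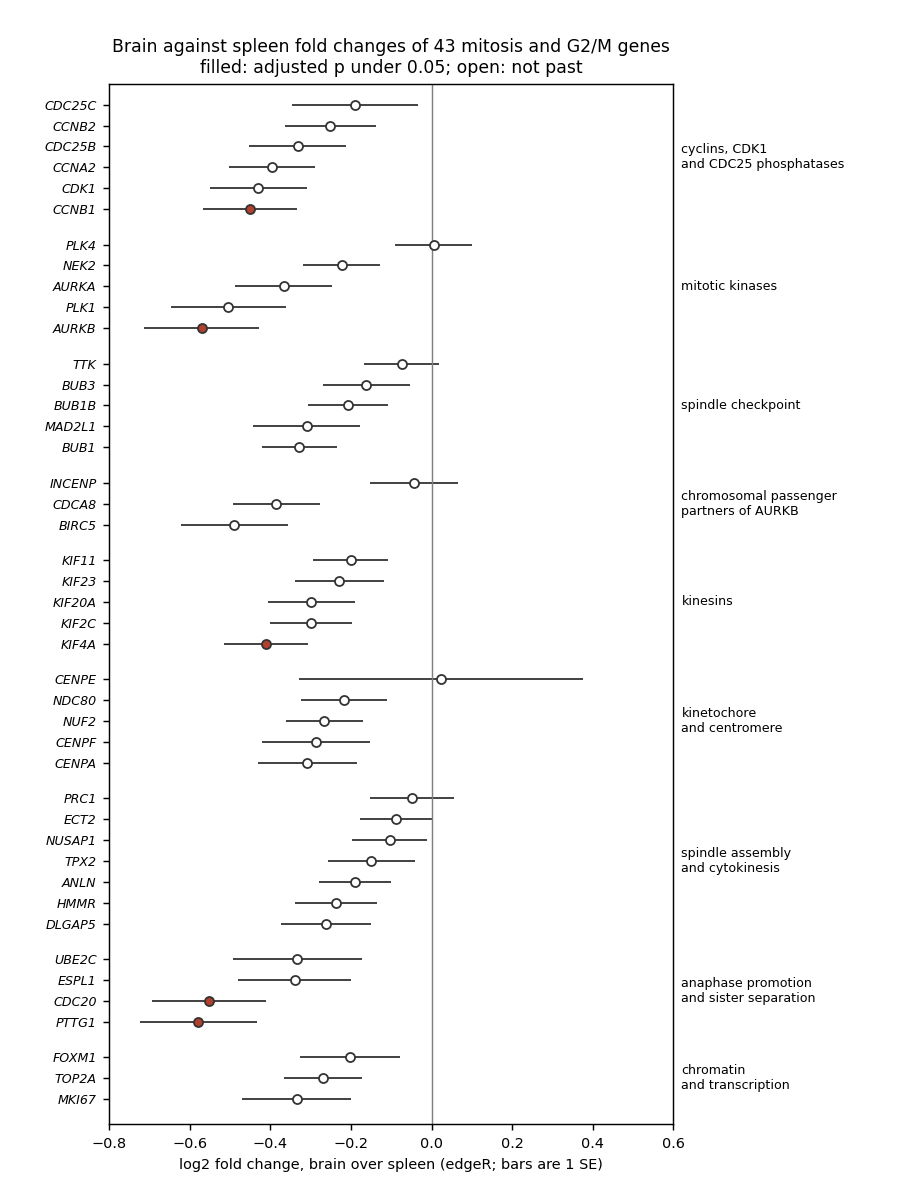
Log2 fold change of each of the 43 genes, brain over spleen, from edgeR, in 9 functional groups on the vertical axis. Bars are 1 standard error and filled points passed an adjusted p of 0.05; the points lie between -0.58 and 0.02, and 41 of 43 lie left of 0.

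The number of calls depended on the test and on single libraries. DESeq2's Wald test called 15 of the 43 lower, with 6.67% of all genes lower. These were the 5 above and CCNA2, CDK1, AURKA, PLK1, BUB1, BIRC5, CDCA8, KIF2C, NUF2 and TOP2A. In the gene descriptions below, passing and falling refer to edgeR with site alone. With the replicate number as a block, edgeR called 10 lower, the 5 above and CCNA2, AURKA, PLK1, BIRC5 and CDCA8, with 3.97% of all genes lower. Without brain replicate 1, edgeR called 0 of the 43 (0.728% of all genes lower), and 12 were lower at an unadjusted p under 0.05, as were 8.06% of all genes. Without brain replicate 2 it called 0 (1.25% of all genes), with 17 lower at the unadjusted threshold (9.63% of all genes). Without spleen replicate 1 it called 0 (1.36% of all genes), with 17 lower at the unadjusted threshold (8.44% of all genes). Without brain replicate 3 it called 4, all but KIF4A, with 2.27% of all genes lower. Without spleen replicate 2 it called 7 lower (CCNA2, CDK1, MAD2L1, BIRC5, KIF4A, CENPA and PTTG1), with 3.87% of all genes lower, and CENPE higher, with 4.07% of all genes higher. With the mouse share as a covariate edgeR called 0 of the 43 (0.0539% of all genes lower), 16 were lower at the unadjusted threshold (6.11% of all genes), the median log2 fold change was -0.39 and that of CENPE was 1.38 (adjusted p = 0.195). DESeq2 was not run on these reduced sets or with the covariate. The log2 fold change stayed below 0 for 40 to 42 of the 43 in each of these fits.

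Within the first occasion, 40 of the 43 were lower in brain than in spleen, where 47.3% of all genes were. The median log2 difference was -0.35 against 0.02 over all genes. Within the second, 39 were lower, where 48.8% of all genes were, with a median of -0.19 against 0.01. Each occasion holds 1 library of each site, so these values carry no test. The occasions and the replicate block rest on the replicate numbers in the sample titles; the deposited column names number the spleen pools differently.

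The cyclins, CDK1 and the CDC25 phosphatases were all 6 below 0 in log2 fold change, with a median of -0.36. CCNB1 encodes cyclin B1, the partner of CDK1 in mitotic entry, and lies on chr5:69167135-69178245 (GRCh38, plus strand). It stood at 112.5, 129.8 and 141.2 CPM in brain replicates 1 to 3 and at 182.0 and 167.4 CPM in spleen replicates 1 and 2. Every brain library lay below both spleen libraries. Its mean was 128 ± 14.4 CPM (SD, n = 3) in brain and 175 ± 10.3 CPM (SD, n = 2) in spleen. The log2 fold change was -0.45 with a standard error of 0.116 (adjusted p = 0.0447, edgeR).

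CCNA2, cyclin A2, stood at 127, 129 and 137 CPM in brain and at 187 and 157 CPM in spleen, again without overlap. Its log2 fold change was -0.40 (adjusted p = 0.0515). CDK1, the kinase itself, had a log2 fold change of -0.43 (adjusted p = 0.0565), from 224 to 255 CPM in brain and 284 to 349 CPM in spleen. Neither passed the threshold with edgeR, whereas DESeq2 called both lower (adjusted p = 0.00703 and 0.00728, DESeq2 Wald test). CCNB2, CDC25B and CDC25C had log2 fold changes of -0.25, -0.33 and -0.19 and did not pass either. CDC25C was the one gene of these 6 whose groups overlapped, with spleen replicate 2 below every brain library at 18.1 CPM.

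Among the mitotic kinases, AURKB, the catalytic subunit of the chromosomal passenger complex (chr17:8204733-8210600, minus strand), fell in brain. It stood at 61.4, 84.1 and 85.7 CPM in brain and at 113.0 and 116.1 CPM in spleen. The brain libraries were all below the spleen libraries, and brain replicate 1 was below the other two. The means were 77.1 ± 13.6 CPM (SD, n = 3) and 115 ± 2.20 CPM (SD, n = 2), a log2 fold change of -0.57 with a standard error of 0.143 (adjusted p = 0.0403, edgeR).

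PLK1, the Polo kinase of mitotic entry and spindle assembly, had the same pattern over libraries as AURKB but did not pass. It stood at 131.5, 181.0 and 175.6 CPM in brain and at 218.3 and 243.3 CPM in spleen, a log2 fold change of -0.50 (adjusted p = 0.0605). AURKA, the centrosomal Aurora kinase, had a log2 fold change of -0.37 (adjusted p = 0.0924), and NEK2, which separates centrosomes, had -0.22 (adjusted p = 0.184). PLK4, the kinase that starts centriole duplication, stood at 88.3, 86.4 and 79.0 CPM in brain and at 85.5 and 83.0 CPM in spleen. Its groups overlapped and its log2 fold change was 0.01 with a standard error of 0.0958 (adjusted p = 0.981).

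The non-catalytic partners of AURKB in the chromosomal passenger complex are BIRC5 (survivin), CDCA8 (borealin) and INCENP. BIRC5 stood at 125.0, 132.4 and 145.2 CPM in brain and at 214.8 and 162.1 CPM in spleen, without overlap, and spleen replicate 1 was well above spleen replicate 2. Its log2 fold change was -0.49 (adjusted p = 0.0521). CDCA8 had a log2 fold change of -0.39 (adjusted p = 0.0572) with 91.6 to 110 CPM in brain and 135 CPM in both spleen libraries. INCENP, the scaffold, overlapped between groups, at 162 to 191 CPM in brain and 170 to 184 CPM in spleen, with a log2 fold change of -0.04.

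The spindle checkpoint genes gave no call with edgeR. Of the 5, 2 were lower at an unadjusted p under 0.05 (11.3% of all genes) and 1 with DESeq2 (6.67% of all genes). All 5 were below 0, with a median of -0.21. BUB1, the kinase that brings checkpoint proteins to the kinetochore, stood at 129.3, 131.5 and 139.5 CPM in brain and at 169.6 and 165.6 CPM in spleen. Its libraries were close within each group and did not overlap, with a log2 fold change of -0.33 (adjusted p = 0.0584). BUB1B, BUB3, MAD2L1 and TTK had log2 fold changes of -0.21, -0.16, -0.31 and -0.07, with adjusted p from 0.184 to 0.682.

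KIF4A, a chromosome-bound kinesin that works in condensation and at the central spindle (chrX:70290104-70420886, plus strand), was the kinesin that fell. It stood at 84.1, 91.2 and 95.0 CPM in brain and at 127.8 and 111.9 CPM in spleen, without overlap. The means were 90.1 ± 5.51 CPM (SD, n = 3) and 120 ± 11.2 CPM (SD, n = 2), a log2 fold change of -0.41 with a standard error of 0.104 (adjusted p = 0.0420, edgeR). The other four kinesins, KIF11, which slides spindle poles apart, KIF2C, which shortens microtubules at centromeres, and the central spindle motors KIF20A and KIF23, ran from -0.30 to -0.20. None of them passed. For each of the 5 kinesins every brain library lay below both spleen libraries, as for 19.5% of all genes.

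The kinetochore and centromere genes gave no call with edgeR. Of the 5, 2 were lower at an unadjusted p under 0.05 (11.3% of all genes) and 1 with DESeq2 (6.67% of all genes). The Ndc80 complex members NDC80 and NUF2, which hold microtubules, had log2 fold changes of -0.22 and -0.27. NUF2 stood at 86.2, 78.1 and 78.0 CPM in brain and at 99.9 and 94.3 CPM in spleen, without overlap (adjusted p = 0.122, edgeR). CENPA, the centromeric histone, had -0.31 and CENPF -0.29. CENPE, a kinesin at the kinetochore, stood at 96.4, 68.5 and 67.0 CPM in brain and at 39.9 and 112.0 CPM in spleen. The 2 spleen libraries lay on either side of all the brain libraries, and the log2 fold change of 0.02 had a standard error of 0.351, the largest of the 43. Summed CPM of these 5 genes overlapped between brain (527 to 619) and spleen (609 to 733), whereas the sums of the other 8 groups did not.

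CDC20 and PTTG1, which act at the start of anaphase, both fell in brain. CDC20, the activator of the anaphase promoting complex (chr1:43358981-43363203, plus strand), stood at 129.4, 169.7 and 181.5 CPM in brain and at 229.3 and 240.4 CPM in spleen. Brain replicate 1 was the lowest and both spleen libraries were above every brain library. The means were 160 ± 27.3 CPM (SD, n = 3) and 235 ± 7.83 CPM (SD, n = 2), a log2 fold change of -0.55 with a standard error of 0.142 (adjusted p = 0.0439, edgeR).

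PTTG1, which encodes securin, the inhibitor of separase (chr5:160421855-160428739, plus strand), had the largest fall of the 43. It stood at 83.1, 97.9 and 108.7 CPM in brain and at 162.9 and 125.6 CPM in spleen, with no overlap and a wide gap between the spleen libraries. The means were 96.6 ± 12.9 CPM (SD, n = 3) and 144 ± 26.3 CPM (SD, n = 2), a log2 fold change of -0.58 with a standard error of 0.145 (adjusted p = 0.0405, edgeR). UBE2C, the ubiquitin-conjugating enzyme of the complex, and ESPL1, separase itself, had log2 fold changes of -0.33 and -0.34 and did not pass. Brain and spleen libraries overlapped for both of these genes.

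**Figure D2:**
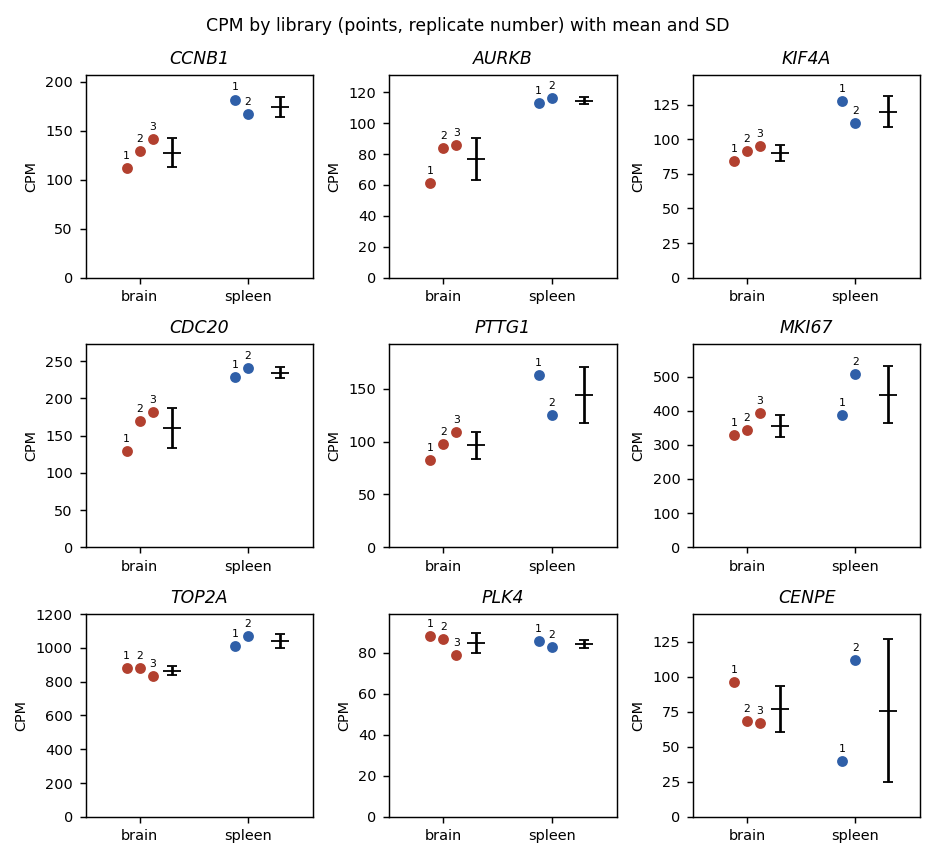
CPM of 9 of the genes in each library (points, labelled with the replicate number) with the group mean and SD, on linear axes that start at 0. The 5 genes that fell have every brain point below both spleen points, PLK4 overlaps, and for CENPE the spleen points (39.9 and 112.0 CPM) lie outside the brain points.

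Genes of spindle assembly and cytokinesis had the smallest differences, with a median log2 fold change of -0.15 over 7 genes. None was called by edgeR or DESeq2. Of the 7, 2 were lower at an unadjusted p under 0.05 (11.3% of all genes). Every brain library lay below both spleen libraries for 6 of them (19.5% of all genes). DLGAP5, a microtubule-binding spindle protein, had the lowest value at -0.26 (adjusted p = 0.180, edgeR). It stood at 104.0, 100.4 and 107.3 CPM in brain and at 137.6 and 111.7 CPM in spleen, where replicate 1 was well above the other libraries. PRC1, which bundles the central spindle, was nearest to 0 at -0.05. TPX2, NUSAP1, HMMR, ANLN (anillin) and ECT2 lay between them.

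MKI67, TOP2A and FOXM1 are common markers of proliferation, and none passed with edgeR. Of these, 2 were lower at an unadjusted p under 0.05 (11.3% of all genes) and 1 with DESeq2 (6.67% of all genes). MKI67, which encodes the Ki-67 protein, stood at 329.2, 342.9 and 392.2 CPM in brain and at 388.6 and 506.4 CPM in spleen. Brain replicate 3 lay just above spleen replicate 1, and the log2 fold change was -0.33 (adjusted p = 0.161). TOP2A, the topoisomerase that untangles chromosomes, stood at 879.5, 882.3 and 833.7 CPM in brain and at 1014 and 1070 CPM in spleen. Its groups did not overlap, with a log2 fold change of -0.27 (adjusted p = 0.121). FOXM1, a transcription factor of G2/M genes, had -0.20 (adjusted p = 0.348).

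Across libraries the 43 genes moved unevenly. Brain replicate 1 was the lowest library for 25 genes, brain replicate 3 for 11 and brain replicate 2 for 5, while CENPE was lowest in spleen replicate 1 and CDC25C in spleen replicate 2. Spleen replicate 1 was the highest for 25 genes and spleen replicate 2 for 15. The median deviation from each gene's own mean, in log2 CPM, was -0.16, -0.08 and -0.07 in brain replicates 1 to 3 and 0.20 and 0.11 in spleen replicates 1 and 2.

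**Figure D3:**
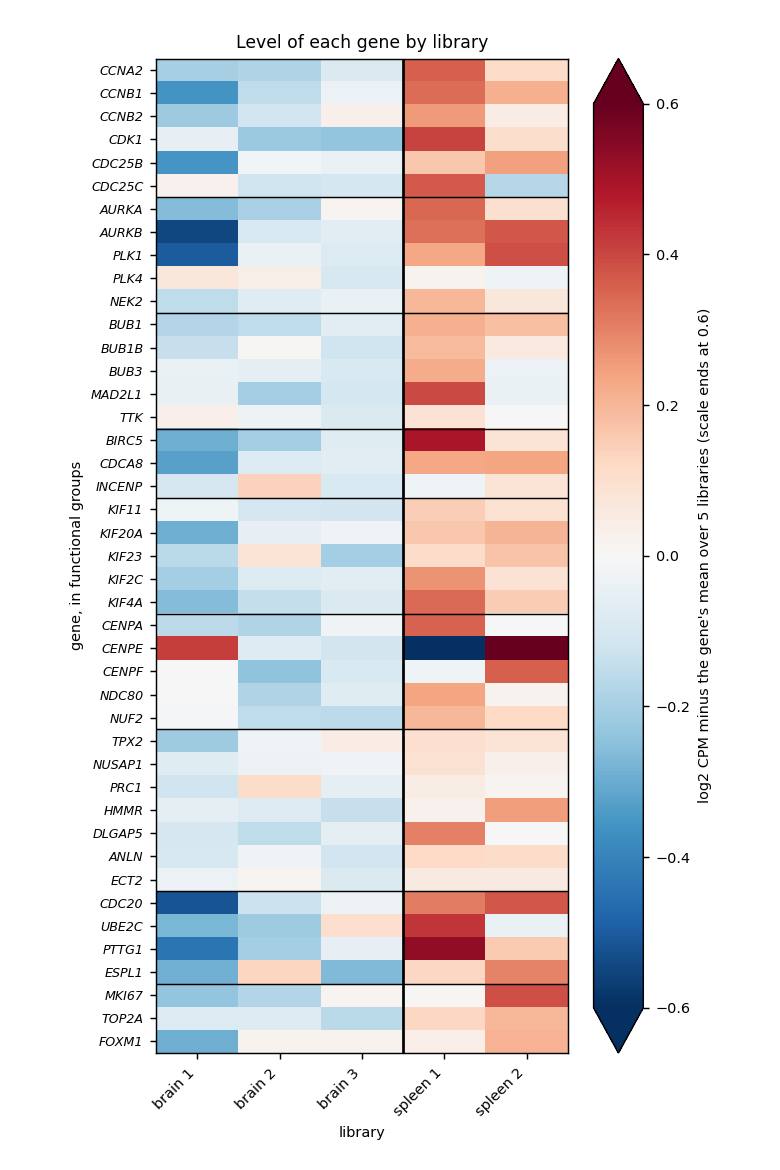
Log2 CPM of each gene in each library minus that gene's mean over the 5 libraries, with genes in functional groups on the vertical axis and libraries on the horizontal axis. The colour scale ends at 0.6 in either direction; the median deviation is below 0 in each brain column and above 0 in each spleen column, and CENPE differs most between the spleen columns.

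The gap between the spleen libraries went with transcript length. Over the 43 genes, the log2 difference of spleen replicate 1 minus spleen replicate 2 had a Pearson correlation of -0.63 and a Spearman correlation of -0.57 with the mean transcript length (-0.60 and -0.54 without CENPE). The points share the same 2 libraries, so no p is given. Over 9753 genes at 10 CPM or more the correlations were -0.39 and -0.44. Of 22 genes with transcripts under 2500 bases, 17 were higher in spleen replicate 1, and all 4 over 5000 bases (CENPE, CENPF, MKI67 and TOP2A) were lower there. The brain against spleen log2 fold change had a weaker relation to length, with Spearman correlations of 0.27 in the 43 genes and 0.29 in the 9753. Its median was -0.31 in the genes under 2500 bases, -0.24 in 17 genes of 2500 to 5000 bases and -0.28 in the 4 longer ones. Among the 9753 genes at 10 CPM or more, those of the same lengths had -0.08, 0.04 and 0.11. The part of length in single fold changes was not tested.

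**Figure D4:**
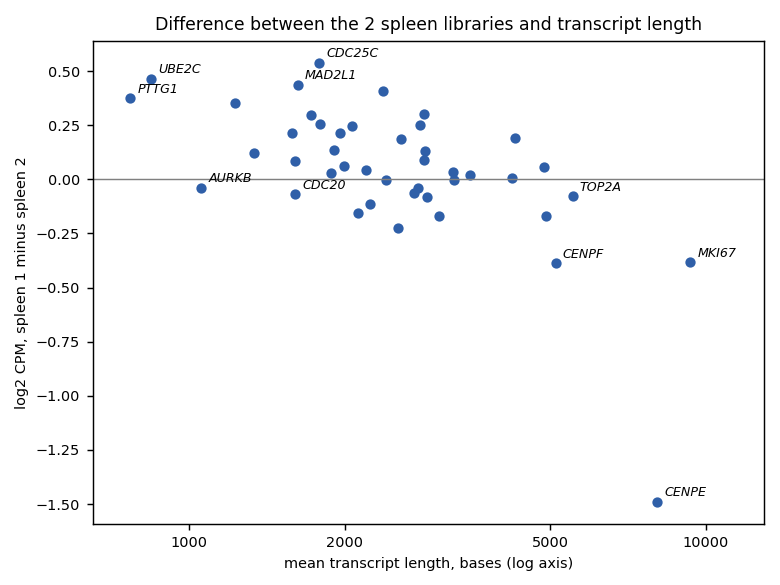
Log2 CPM of spleen replicate 1 minus spleen replicate 2 for each of the 43 genes against its mean transcript length in bases (log axis). Short transcripts lie mostly above 0 and the 4 genes over 5000 bases lie below it, CENPE the farthest.

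Levels between genes were compared in TPM, which corrects for transcript length. BUB3 had the highest mean level at 309 TPM, followed by UBE2C and PTTG1 at 252 each, TOP2A at 236 and NUSAP1 at 234. The lowest were CENPE at 13.3 TPM, CDC25C at 14.7, ANLN at 24.4, ECT2 at 25.4 and TTK at 30.5. Of the 5 genes that fell, only PTTG1 was among the 5 highest, and none was among the 5 lowest.

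Some gene totals rested on transcripts other than the full-length coding ones. For MAD2L1, 79.3% of the TPM was assigned to MAD2L1-202, annotated as a target of nonsense-mediated decay, and 9.88% to the coding MAD2L1-201. For CENPF, 53.0% was assigned to the 734-base retained-intron transcript CENPF-204 and 45.8% to the coding CENPF-201. Coding transcripts of PLK4 held a mean of 54.2% of its TPM in brain and 48.1% in spleen. Those of INCENP held 51.7% and 50.2%, and those of ESPL1 50.7% and 49.2%. For MKI67, the long coding transcript MKI67-202 had 29.8%, 19.0% and 15.7% in brain replicates 1 to 3 and 7.03% and 18.1% in spleen replicates 1 and 2, with spleen replicate 1 the lowest. Near-identical copies of the genes that fell held few counts: KIF4B held 16 against 23324 for KIF4A, and PTTG2 held 31 against 26460 for PTTG1. KIF4A is overlapped on the opposite strand by PDZD11, which held 6396 counts. This overlap is one of gene spans, and shared exon sequence was not examined. The strand setting of the counting is not given in the sources used here. How far counts of overlapping genes mix was not tested.

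Further genes of the same processes came from lists set by function, and no difference between them and the 43 was tested. Over 113 further G2/M and mitosis genes that were tested, 14 fell, where 3.50% of all tested genes fell, 91 were below 0 and 22 above, and the median log2 fold change was -0.19. Of 16 other regulators of mitotic entry, with a median of -0.35, 5 fell, among them the kinase genes PBK (-0.66) and PKMYT1 (-0.48), and the phosphatase gene CDKN3 (-0.49). Of 34 other kinetochore and centromere genes 4 fell, including MIS18A (-0.55), which helps to load CENPA, and ZWINT (-0.46). Of 24 other kinesin and spindle genes 3 fell (KIF22 at -0.51, DEPDC1B at -0.50 and TACC3 at -0.45). Of 17 subunits and regulators of the anaphase promoting complex, only ANAPC15 fell (-0.86). Of 14 MuvB, MYB and repressor E2F genes, only E2F8 fell (-0.55), the median was -0.14 and 5 were above 0. None of 8 condensin genes was called by edgeR. Of the 8, 4 were lower at an unadjusted p under 0.05 (11.3% of all genes) and 3 with DESeq2 (6.67% of all genes). The most abundant condensin gene, SMC4, had -0.04.

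Genes of the preceding stage of the cell cycle were counted in the same way. Of 40 genes of G1/S and DNA replication, 8 fell in brain, where 3.50% of all tested genes fell, and 37 were below 0, with a median log2 fold change of -0.31. Those that fell included POLE2 (-0.53) and POLA1 (-0.42), subunits of DNA polymerases, and GINS2 (-0.52), a part of the replicative helicase. Above 0 were POLE (0.29), a further polymerase subunit, CDT1 (0.19), which licenses origins, and RRM1 (0.02), a ribonucleotide reductase subunit, none of which passed. No test of the difference between this list and the 43 mitosis and G2/M genes was made.

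**Figure D5:**
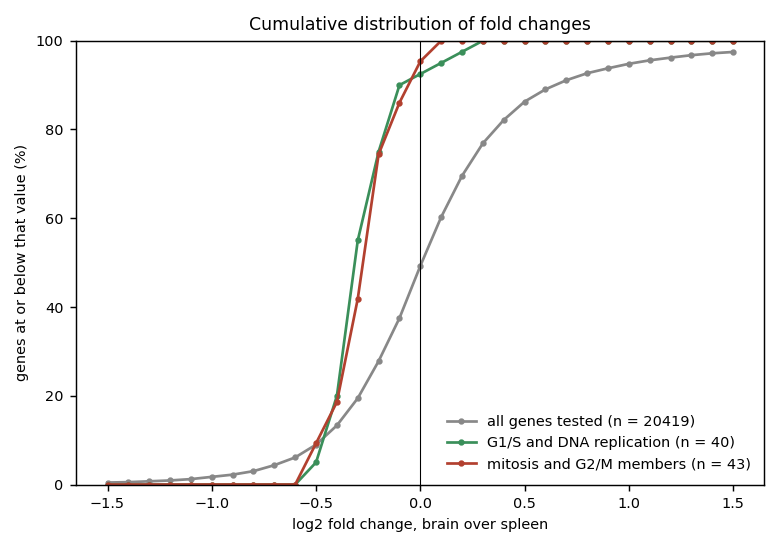
Percent of genes at or below each log2 fold change, brain over spleen, for the 43 mitosis and G2/M genes, 40 G1/S and DNA replication genes and all 20419 genes tested. Both cell cycle curves lie left of that of all genes between -0.4 and 1.5 and reach 95.3% and 92.5% at 0, against 49.3%.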

How the data were processed

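Per the submitters' processing notes, bcl2fastq 1.8.4, cutadapt 1.5, kallisto 0.42.4 and DESeq2 (no version) were used with builds GRCh38 and GRCm38. How the steps were ordered and whether counting used strand is not given in the sources used here. Libraries were made with a stranded mRNA kit and sequenced on an Illumina NextSeq, per the labels' protocols. The deposited gene table holds the authors' estimated counts as whole numbers, and a second deposited table holds log2-scale (rlog) values. Transcript tables hold estimated counts and TPM, per the file headers. Each gene table has 1 column that belongs to no sample here; it was left out, but may have entered the scaling of the authors' log2 values.

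Identifiers were matched to GENCODE 44 (56322, 86.4%, holding 99.76% of the counts). Genes were filtered with filterByExpr, scaled by TMM and tested with edgeR 4.0.16 (R 4.3.3; quasi-likelihood test), site being the single term, 3 residual degrees of freedom and Benjamini-Hochberg adjustment over 20419 genes at 0.05. CPM were computed on TMM-scaled totals. The script was tested on simulated data whose changes were all larger than any of the 43 genes. That check does not cover changes as small as those reported here. Alternatives were DESeq2 1.42.0, limma 3.58.1 on the rlog values, other filters and scalings, summed transcript estimates, the mouse share as a covariate, the replicate block and each library left out. Replicate numbers in the titles mark shared occasions, per the labels' protocols, and were taken to pair the samples. The deposited column names, however, number the spleen pools differently. Deviations of same-numbered libraries from their group means correlated at -0.01 and 0.25. Brain replicate 3, which has no spleen partner, reached 0.22 with spleen replicate 1. With 2 spleen libraries these deviations mirror each other, so the correlations cannot show whether the libraries are paired. Values of every library are given for genes that passed the test, the gene with the smallest p in each functional group, MKI67 and genes above 0, and also for some genes near the threshold. Of each related list up to 3 genes that passed are named by smallest p, or else the most abundant one. The 43 genes, their groups and all gene lists were chosen with earlier results of these data known.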

Additional observations from a re-analysis of the deposited data

How the results depend on the processing

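The direction of the median over the 43 genes was below 0 in all 14 alternatives run, from -0.18 (rlog values with limma) to -0.39 (mouse share as a covariate). The number of the 43 called lower was 5 with edgeR and 10 with a filter at 1 CPM, 11 with no filter, 10 with upper-quartile scaling, 10 with the replicate block, 15 with DESeq2's Wald test and 0 with the mouse share as a covariate; leaving out 1 library gave 0 to 7 lower and 0 to 1 higher. Over all genes, 714 were lower, against 894 (1 CPM filter), 1337 (no filter), 860 (upper-quartile scaling), 810 (replicate block), 1361 (DESeq2), 11 (mouse share) and 146 to 828 (leaving out 1 library); 1228 were higher, against 114 (mouse share) and 515 to 871 (leaving out 1 library). The calls of CCNB1, AURKB and CDC20 were lost without any 1 library except brain replicate 3, with adjusted p up to 0.154, 0.0926 and 0.107 (edgeR). That of KIF4A was lost without any except spleen replicate 2 (up to 0.180), and that of PTTG1 without brain replicate 1, brain replicate 2 or spleen replicate 1 (up to 0.189). With the mouse share as a covariate their log2 fold changes were -0.74, -0.96, -0.90, -0.63 and -1.04, none past the threshold; the cause was not tested. PLK4, near 0, changed sign with the 1 CPM filter (-0.0051), DESeq2's Wald test (-0.014), DESeq2 size factors (-0.014), rlog (-0.0079), no filter (-0.0033), summed transcript estimates (-0.012), upper-quartile scaling (-0.0032) and when 1 library was left out (-0.026 to 0.048). With 1 library left out, CENPE ran from -0.54 (without spleen replicate 1) to 0.95 (without spleen replicate 2, adjusted p = 0.0268, edgeR), and was -0.17 without brain replicate 1; with the mouse share as a covariate it was 1.38 (adjusted p = 0.195). The replicate block changed no other call among the 43 than those given in the report. The least abundant of the 43 stood at 18.1 CPM or more in each library; what depth or more pools would add was not tested.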
